A study of Mus musculus and Mus musculus x Mus spretus with 14 samples.

Results

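The Sfmbt2 cluster is a run of microRNA hairpins of the miR-297, miR-466, miR-467 and miR-669 families that lies inside the mouse gene Sfmbt2 on chromosome 2. It was read here on miRNA microarrays of 13 mouse skin cell lines. Every probe whose name holds a mouse miRNA of 1 of these 4 families was taken as a member, whatever its signal. That gave 27 probes of 1271 in the deposited table, of which 576 carry a mouse miRNA name: 4 probes of the miR-297 family, 12 of miR-466, 8 of miR-467 and 3 of miR-669. The mature forms are given by the array's own names, where a star marks the strand of a hairpin thought to be the less abundant and -5p and -3p mark the 2 arms.

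Sfmbt2 codes for a Polycomb-group protein, and in mice it is imprinted, being expressed from the paternal copy in early embryos and placenta. Its large intron holds this rodent-specific cluster, which grew by repeated duplication, so that many hairpins are near copies of each other. The miRNAs are known from mouse embryonic stem cells and placenta, and a microRNA acts by pairing its seed, bases 2 to 8, with sites in messenger RNAs.

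The lines fall into 3 groups. The 5 spindle carcinoma lines are A5 and D3, CARB and CARC (tumours induced with DMBA and TPA in NIH/Swiss mice), and H11. The 3 malignant squamous lines are B9, grown from a DMBA-induced tumour of a Mus spretus x CBA hybrid, E4, a single-cell clone of the line SN161 from a lymph node metastasis in a 129/NIH hybrid, and PDVC57, from a tumour that DMBA-transformed PDV keratinocytes formed in C57 mice. The 5 non-malignant squamous lines are the immortalized keratinocytes C5N (a single-cell clone of MCA3D, from BALB/c), C50 and NK (from a p53 null mouse), with the papilloma lines MSCP1 and P6 (DMBA and TPA, Mus spretus x CBA). A5, D3 and B9 were derived from a single tumour, and H11 shares its tumour with E4; lines of a shared tumour are not independent of each other. All grew in the same medium with serum, and each gave 1 array except A5, which was hybridised in duplicate and averaged. Values are the deposited log2 signals, which ran between 5.93 and 15.2. On each array the background is taken as the median of its 8 negative-control probes, between 6.50 and 6.68 over the lines, and a probe counts as above background when it exceeds that median by more than 1 log2 unit. The A5 duplicates differed by a median of 0.116 log2 units over the 27 probes, with a largest gap of 0.374 for miR-466g, beside 0.114 over all 576 mouse probes; no other line had a repeat.

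Defining markers fit the labelled phenotypes in part. Of 7 epithelial miRNA probes (miR-200 family, miR-203 and miR-205), 0 were above background in any spindle line. The counts were 3 to 5 in malignant squamous lines and 2 to 7 in non-malignant squamous lines. In the malignant squamous line E4, however, miR-205 (6.69), miR-200c (7.21) and miR-203 were not above background, its negative-control median being 6.50. At least 3 of the other epithelial probes were above background in E4. B9 was above background for miR-205 but not for miR-203 or miR-200c, and PDVC57 for miR-205 and miR-200c but not for miR-203. Among non-malignant squamous lines, C5N and MSCP1 were above it for miR-205 but not for miR-203 or miR-200c. P6 was above it for miR-205 and miR-200c but not for miR-203, and C50 and NK for each of these miRNAs. Of 5 fibroblast-associated probes (miR-143, miR-145, miR-199a and miR-214), 1 to 5 were above background in spindle lines, 1 in each malignant squamous line and 0 to 1 in non-malignant squamous lines, and endothelial miR-126 was above it in no line. Of 5 blood-cell probes, 0 to 2 were above background in spindle and in malignant squamous lines and 0 in non-malignant squamous lines. Of 4 muscle probes, 0 to 1 were above background in each group. Of 22 probes for pluripotent-cell miRNAs (the miR-290 and miR-302 groups), 1 to 2 were above background in spindle lines, 2 in each malignant squamous line and 0 to 4 in non-malignant squamous lines, and 17 were above it in no line. On 3 arrays the signals departed from those of the other lines. C5N was the highest line for 145 of 576 mouse probes and the lowest for 100, MSCP1 had 37 mouse probes above background where the other lines had 119 to 185, and A5 was the highest line for 90 mouse probes. Results are therefore also given without C5N, MSCP1 and A5.

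RefSeq (GRCm38.p6) lists 82 hairpin genes in the 4 families, of which 72 lie within the span of Sfmbt2 and 10 elsewhere. The 27 probes name 19 miRNAs with 54 hairpin genes, and 52 of these lie inside Sfmbt2. The exceptions are Mir297-1 and Mir466f-4, so for 23 probes every listed hairpin is inside the gene. Several miRNAs have many copies there, with 12 hairpin genes for miR-669a, 10 for miR-467a and 8 for miR-466b. A probe for such a miRNA may read several copies together. No mature sequence of a member was available here, so whether the copies give the same mature form was not checked. How far a probe also reads the near-identical relatives of its target was not tested, and 4 probes carry more than 1 mature name from the start.

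The letters of the family are shown by 4 relatives whose hairpins RefSeq places outside Sfmbt2 and which have no probe on the array, and by miR-574-5p, a miRNA from another gene that the results below return to. They are printed 5′ to 3′ with the seed in capitals, and each is from RefSeq (GRCm38.p6).
miR-466k (chr3:85467396-85467418, plus strand): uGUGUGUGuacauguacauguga
miR-466i-3p (chr13:17747552-17747573, plus strand): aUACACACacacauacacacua
miR-467f (chr11:69635419-69635439, minus strand): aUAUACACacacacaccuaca
miR-669n (chr3:115979905-115979924, plus strand): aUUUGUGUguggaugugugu
miR-574-5p (chr5:64970328-64970350, plus strand): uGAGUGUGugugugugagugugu
Each of these sequences holds a run that alternates U with G, or A with C, beside other bases. The hexamer GUGUGU or its reverse complement ACACAC occurs in all 8 family relatives of the table that lie outside Sfmbt2, against 28 of the 1738 mature mouse sequences in it, or 1.61%, a count that includes those 8. The 5 seeds printed differ from each other. No cluster member on the array is among them, so they do not show how far the members share seeds.

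The cluster was partly above background in these lines. Of the 27 probes, 8 (29.6%) were above background in at least 7 of the 13 lines, 12 in 1 to 6 lines and 7 in none, and 0 were above it in all 13. Among the 549 mouse probes outside the cluster the share above background in at least 7 lines was 21.5% (118 probes), and among the 69 probes of the Dlk1-Dio3 cluster, another large imprinted miRNA cluster, it was 10.1% (7 probes). These shares are a description and were not tested against each other. Each array reads the RNA of a whole culture, so fewer expressing cells and less miRNA per cell cannot be told apart. The 8 probes are called the detected probes below, and they are miR-466f-3p, miR-467e*, miR-466d-5p, miR-466c-5p, miR-466b-5p, miR-466a-5p, miR-466e-5p and the shared probe of miR-297b-3p, miR-297a* and miR-297c*.

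**Figure D1:**
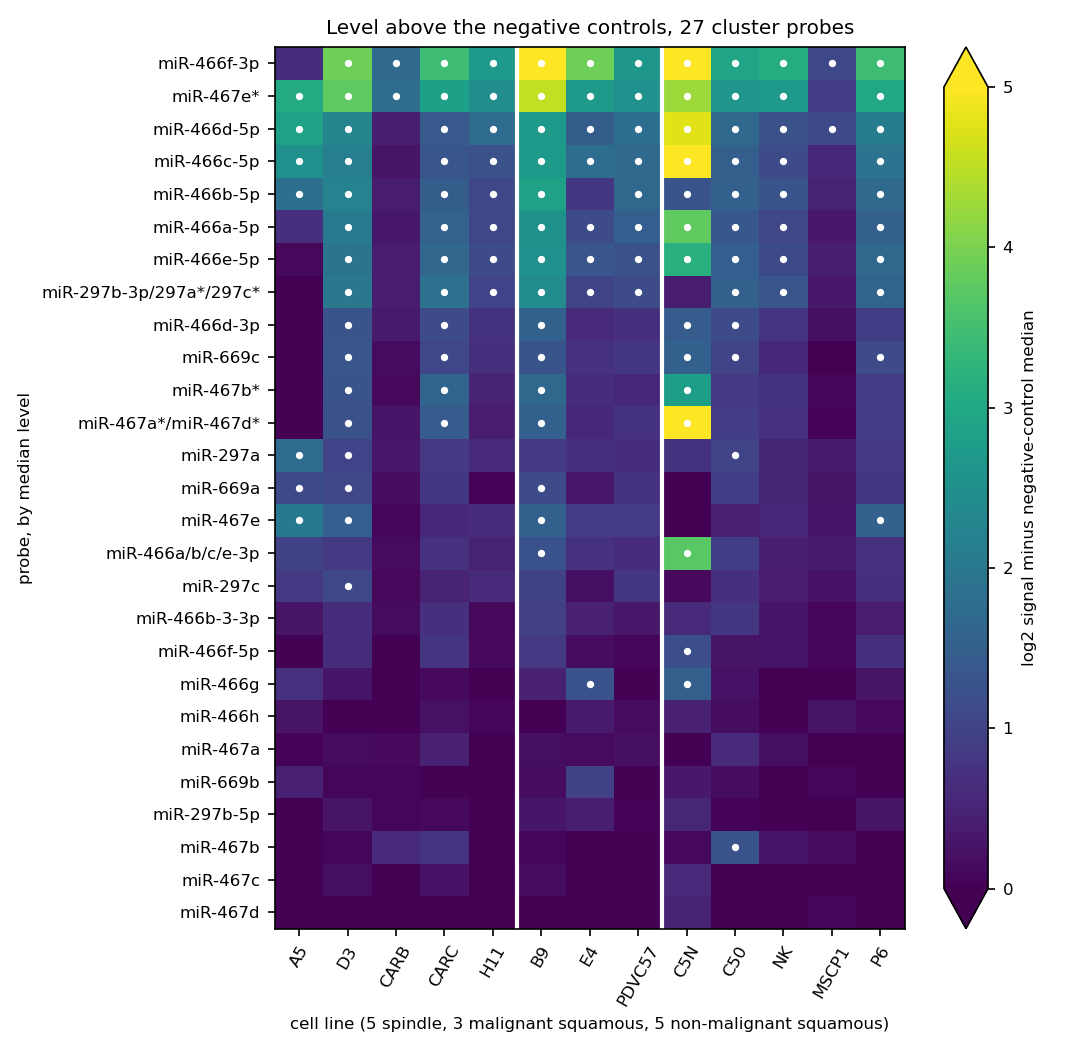
Log2 signal minus the negative-control median of the same array for each of the 27 cluster probes (rows, in order of median level) in each of the 13 lines (columns: 5 spindle, 3 malignant squamous, 5 non-malignant squamous), with colours cut at 0 and 5 and a white dot where a probe is above background. The 8 detected probes fill the top rows, and D3, B9 and C5N hold 16, 15 and 14 dots, while CARB and MSCP1 hold 2 each.

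Detection was also counted by arm. Of the 6 miR-466 probes for a 5p arm, 5 were detected probes, and of the 4 for a 3p arm, 1 was (miR-466f-3p, above background in 12 lines). The 3 star probes of miR-467 were above background in 4 to 12 lines and its 5 unstarred probes in 0 to 4. miR-467e* was above background in 12 lines and miR-467e in 4, and miR-467b* in 4 and miR-467b in 1. The 3 miR-669 probes were above background in 0 to 6 lines, with miR-669c in 6, miR-669a in 3 and miR-669b in none. Probes differ in how strongly they bind, so these counts say where a signal could be read and do not rank the strands by abundance. The 7 probes above background in no line were miR-466b-3-3p, miR-466h, miR-467a, miR-669b, miR-297b-5p, miR-467c and miR-467d.

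miR-466f-3p read 7.34 in A5, 10.49 in D3, 8.37 in CARB, 10.01 in CARC and 9.33 in H11 among spindle lines, 11.89 in B9, 10.41 in E4 and 9.27 in PDVC57 among malignant squamous lines, and 14.29 in C5N, 9.56 in C50, 9.75 in NK, 7.72 in MSCP1 and 10.03 in P6 among non-malignant squamous lines. The 3 groups overlapped, C5N was the highest line and A5 the lowest, and A5 was the 1 line in which this probe was not above background. The miR-466f hairpins number 4, of which 1 lies outside Sfmbt2.

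The probe for miR-467e* is named for the starred strand of the single miR-467e hairpin. It read 9.75 in A5, 10.35 in D3, 8.45 in CARB, 9.38 in CARC and 9.10 in H11. The values were 11.10 in B9, 9.19 in E4 and 9.14 in PDVC57, and 10.90 in C5N, 9.25 in C50, 9.36 in NK, 7.55 in MSCP1 and 9.57 in P6. Its highest lines were B9 and C5N and its lowest MSCP1, the 1 line where it was not above background, and the groups overlapped. Spindle lines averaged 9.40 ± 0.71, malignant squamous lines 9.81 ± 1.12 and non-malignant squamous lines 9.33 ± 1.20 (SD, n = 5, 3 and 5).

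The 5p arms of miR-466 fell into 2 patterns in C5N. miR-466c-5p read 9.18, 8.75, 6.93, 7.90 and 7.89 in spindle lines (A5, D3, CARB, CARC, H11), 9.27, 8.29 and 8.33 in malignant squamous lines (B9, E4, PDVC57), and 13.81, 8.14, 7.82, 7.21 and 8.48 in non-malignant squamous lines (C5N, C50, NK, MSCP1, P6). In the same order miR-466d-5p read 9.53, 8.87, 7.08, 7.96 and 8.40 in spindle lines, 9.28, 7.98 and 8.43 in malignant squamous lines, and 11.41, 8.34, 7.90, 7.73 and 8.69 in non-malignant squamous lines. C5N was the highest line for both, by 4.54 log2 units over the next line for miR-466c-5p and by 1.87 for miR-466d-5p, and without C5N the groups still overlapped.

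miR-466a-5p read 7.38, 8.66, 6.98, 8.12 and 7.70 in spindle lines (A5, D3, CARB, CARC, H11), 9.14, 7.66 and 8.12 in malignant squamous lines (B9, E4, PDVC57), and 10.42, 7.99, 7.72, 6.96 and 8.11 in non-malignant squamous lines (C5N, C50, NK, MSCP1, P6). In the same order miR-466e-5p read 6.78, 8.52, 7.06, 8.20 and 7.80, then 9.10, 7.85 and 7.87, and 9.81, 8.12, 7.78, 7.05 and 8.27. Both were highest in C5N and next in B9, and low in CARB, MSCP1 and, for miR-466e-5p, A5. miR-466b-5p, of a miRNA with 8 hairpin genes, read 8.53, 8.80, 7.07, 8.02 and 7.72 in spindle lines, 9.44, 7.31 and 8.29 in malignant squamous lines, and 7.93, 8.17, 7.95, 7.10 and 8.31 in non-malignant squamous lines. Here B9 was the highest line and C5N lay 1.51 log2 units below it, within the range of the other lines.

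The shared probe of miR-297b-3p, miR-297a* and miR-297c* read 6.54 in A5, 8.57 in D3, 7.06 in CARB, 8.43 in CARC and 7.65 in H11, then 8.98 in B9, 7.52 in E4 and 7.79 in PDVC57, and 7.02 in C5N, 8.17 in C50, 7.98 in NK, 6.98 in MSCP1 and 8.19 in P6. It was above background in 9 lines and, unlike the 5 probes highest in C5N, it was not above background there. The plot of the detected probes by group shows this overlap of the 3 groups for each of them.

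**Figure D2:**
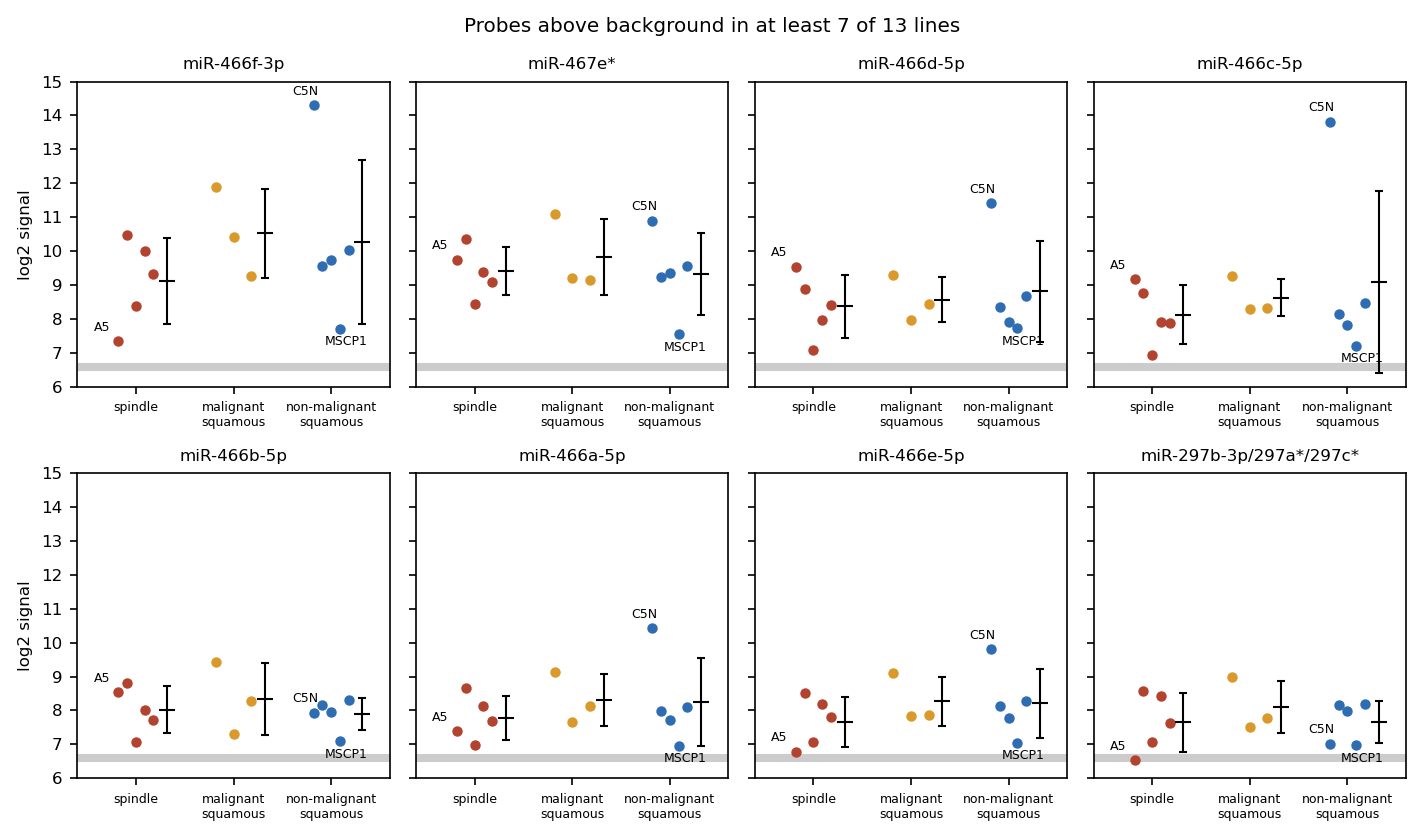
Log2 signal of the 8 detected probes, 1 point per line, for the 5 spindle (red), 3 malignant squamous (orange) and 5 non-malignant squamous lines (blue), with the group mean and SD in black beside the points and the range of negative-control medians (6.50 to 6.68) in grey. The groups overlap in all 8 panels, and C5N reaches 14.29 for miR-466f-3p and 13.81 for miR-466c-5p.

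Among the other 19 probes, C5N again held the highest values of several. The shared probe of miR-467a* and miR-467d* read 6.70, 7.83, 6.94, 8.00 and 7.03 in spindle lines (A5, D3, CARB, CARC, H11), 8.11, 7.06 and 7.37 in malignant squamous lines (B9, E4, PDVC57), and 11.65, 7.54, 7.38, 6.68 and 7.47 in non-malignant squamous lines (C5N, C50, NK, MSCP1, P6). C5N stood 3.54 log2 units above the next line, B9, and the other 12 lines overlapped between groups. The shared 3p probe of miR-466a, miR-466b, miR-466c and miR-466e read 10.36 in C5N and at most 7.82 elsewhere, and miR-467b* read 9.41 in C5N and at most 8.25 elsewhere. C5N was the highest line for 15 of the 27 probes (55.6%) and for 5 of the 8 detected ones, beside 25.2% of all mouse probes. The widely expressed let-7a and miR-21 and a control RNA had their lowest levels in C5N, and both miRNAs were also low in MSCP1 and A5. let-7a read 6.99 in C5N, 7.34 in MSCP1 and 7.56 in A5, and 9.87 to 10.51 in the other lines. miR-21 read 7.01 in C5N, 8.40 in A5 and 10.21 in MSCP1, and 11.45 to 13.57 in the other lines. U6-snRNA-1 read 6.48 in C5N, below the array's negative-control median of 6.63, and 8.44 to 12.18 elsewhere. Their part in the high cluster values of C5N was not tested. C5N was not high for every member: it was the lowest line for miR-669a, at 6.46, and for miR-467e, at 6.64. Both values are at background, the array's negative-control median being 6.63.

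A5 had another profile. It was the highest line for miR-297a, at 8.44 against at most 7.66 elsewhere, for miR-467e, at 8.69 against at most 8.12, and for miR-669a, at 7.80 against at most 7.74. miR-467e read 8.69, 8.09, 6.74, 7.12 and 7.28 in spindle lines (A5, D3, CARB, CARC, H11), 8.11, 7.37 and 7.51 in malignant squamous lines (B9, E4, PDVC57), and 6.64, 7.10, 7.24, 6.92 and 8.12 in non-malignant squamous lines (C5N, C50, NK, MSCP1, P6). In the same order miR-669a read 7.80, 7.65, 6.83, 7.37 and 6.70, then 7.74, 6.83 and 7.35, and 6.46, 7.56, 7.17, 6.89 and 7.39. For both, A5, D3 and B9, the lines of 1 tumour, were above background, and the groups overlapped. For miR-467e the papilloma line P6 was above background too, at a level like that of B9. A5 was the lowest line for 5 members, 3 of them detected probes: miR-466f-3p, miR-466e-5p and the shared miR-297b-3p probe. CARB and MSCP1 were each the lowest line for 6 members. miR-669c and miR-466d-3p, above background in 6 and 5 lines, read 6.59 to 8.16 and 6.48 to 8.13. miR-466g was above background in 2 lines (8.15 in C5N and 7.77 in E4), and miR-467b (7.91 in C50), miR-466f-5p (7.84 in C5N) and miR-297c (7.68 in D3) in 1 line each. The other 7 members were above background in no line, for instance miR-467d, which read between 6.21 and 7.11, and miR-466h, between 6.58 and 7.08.

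The mean of the 8 detected probes ordered the lines as MSCP1 (7.29), CARB (7.38), A5 (8.13), H11 (8.20), E4 (8.28), NK (8.28), PDVC57 (8.41), C50 (8.47), CARC (8.50), P6 (8.71), D3 (9.13), B9 (9.78) and C5N (10.70). Each of the 3 groups is spread along this order, with means of 8.27 ± 0.63 in spindle lines, 8.82 ± 0.83 in malignant squamous lines and 8.69 ± 1.25 in non-malignant squamous lines (SD, n = 5, 3 and 5). The 8 lines between A5 and P6 lie between 8.13 and 8.71, and neighbours among them differ by less than the SD of any group. The number of members above background ran from 2 to 16 in spindle lines, from 8 to 15 in malignant squamous lines and from 2 to 14 in non-malignant squamous lines.

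The detected probes varied together across the lines, with weaker correlations over the whole cluster. Over all 351 pairs of members the median Pearson r across 13 lines was 0.377 (Spearman 0.418), beside 0.059 over all pairs of the 576 mouse probes, with 72.6% of the pairs above 0 and a lowest of -0.679. The 171 pairs of the 19 other members had a median r of 0.182 over 13 lines and 0.336 over the 10 lines other than C5N, MSCP1 and A5. Among the 28 pairs of detected probes the median r was 0.702, with a lowest of -0.145, beside 0.493 among the 118 mouse probes outside the cluster that were above background in at least 7 lines. These coefficients are descriptions: the points share an array per line, so that anything that brightens a whole array enters them, and near-identical probe targets may share signal.

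Without C5N, MSCP1 and A5 the detected probes came closer to each other and the other mouse probes did not. Over the remaining 10 lines the 28 pairs had a median r of 0.914 and a lowest of 0.761, beside 0.282 for the 118 other detected mouse probes, 0.039 for all mouse probes and -0.008 for the 69 Dlk1-Dio3 probes. The median over all 351 member pairs was 0.594. The pair miR-466a-5p and miR-466e-5p had r = 0.958 over 13 lines and 0.973 over 10. The shared probe of miR-467a* and miR-467d* and miR-669a had r = -0.327 over 13 lines and 0.882 over 10, C5N being the highest line of one and the lowest of the other. In C5N miR-669a was not above background.

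**Figure D3:**
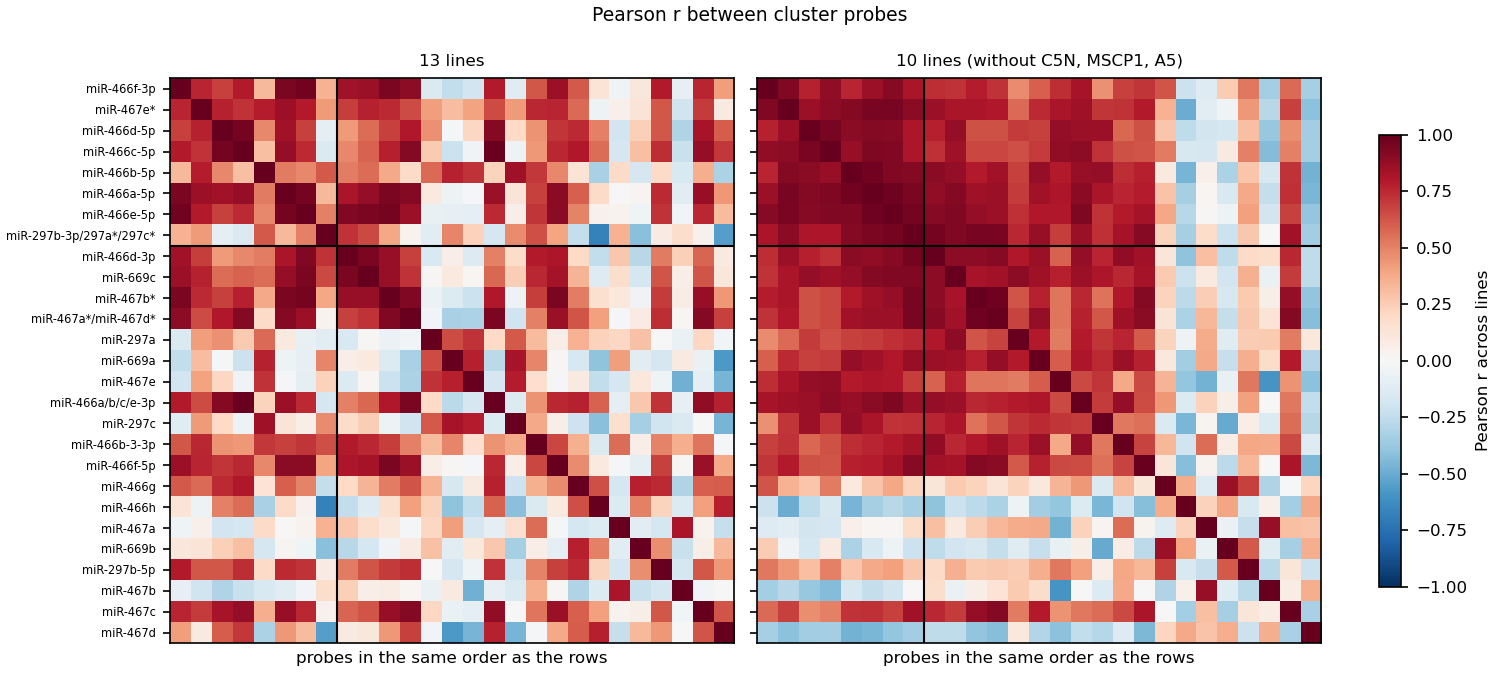
Pearson r between each pair of the 27 cluster probes over 13 lines (left) and over the 10 lines other than C5N, MSCP1 and A5 (right), with rows and columns in order of median level and the 8 detected probes above and left of the black lines. Among the detected probes the lowest r is -0.145 on the left and 0.761 on the right, and on the right the lowest 8 rows are paler than the rest, apart from miR-467c.

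Correlations of the cluster with measures of the whole array depended on the lines taken. The mean of the detected probes had r = 0.545 (Spearman 0.602) with the number of mouse probes above background over 13 lines, 0.371 without the 2 lines farthest from the median of that number, and 0.928 over the 10 lines. With the U6-snRNA-2 control the r was 0.176 over 13 lines, -0.368 without B9 and MSCP1, its 2 farthest lines, and 0.836 over 10. With U6-snRNA-1 it was -0.155 over 13 lines and 0.664 over 10, and 0.664 also without C5N and MSCP1, its 2 farthest. With the mean of the spike-in probes it was -0.479, -0.515 without D3 and CARC, and -0.682 over 10. D3 and B9, which had 185 and 184 mouse probes above background and U6-snRNA-2 levels of 14.77 and 15.06, were the highest of the 10 lines for the cluster. C5N had the highest cluster mean with 129 mouse probes above background and a U6-snRNA-2 level of 10.45, near the 10.42 of MSCP1, which had the lowest. The part of array-wide brightness in the shared variation was not tested.

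**Figure D4:**
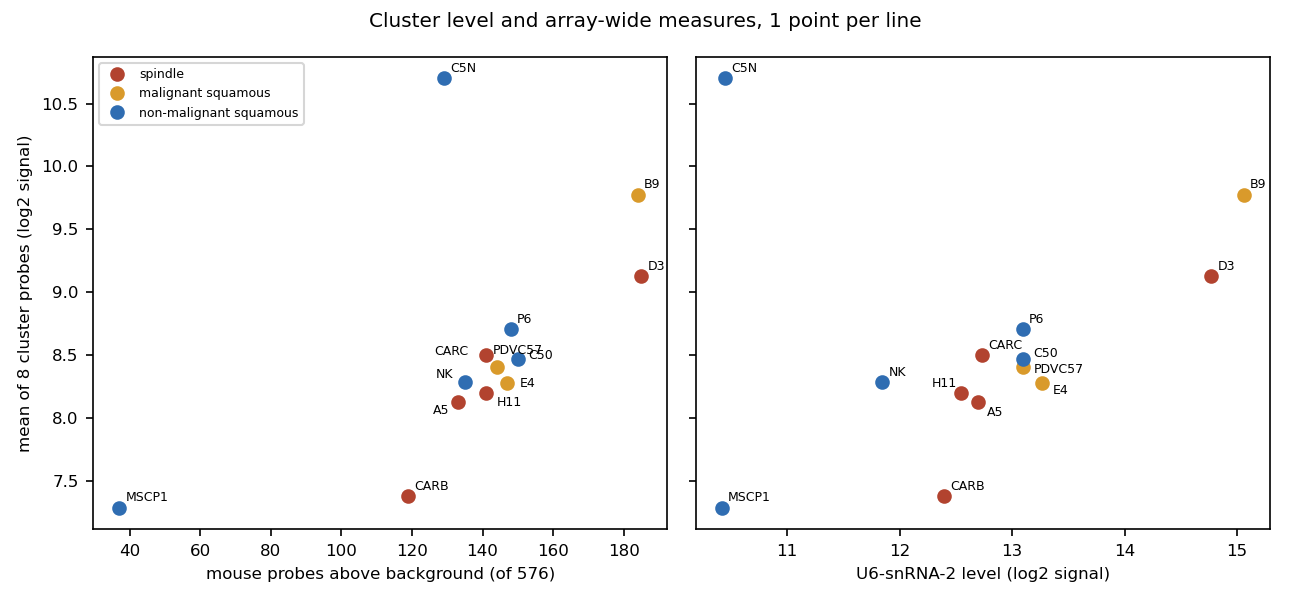
Mean log2 signal of the 8 detected cluster probes (vertical axis) against the number of mouse probes above background (left) and the U6-snRNA-2 level in log2 units (right), 1 point per line, for spindle (red), malignant squamous (orange) and non-malignant squamous lines (blue). D3 and B9 are at the upper right of both panels, MSCP1 at the lower left, and C5N at 10.70 lies above the other lines with 129 mouse probes above background.

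Outside the cluster, the 5 mouse probes whose pattern was most like the mean of the detected probes over 13 lines were miR-295 (r = 0.886), miR-326 (0.878), miR-485* (0.873), miR-192 (0.841) and miR-491 (0.834). Of these, miR-485* was above background in 4 lines and the other 4 in none, so their likeness rests on small differences near background. Over the 10 lines without C5N, MSCP1 and A5, the 5 nearest were miR-574-5p (0.952), miR-721 (0.911), miR-675-5p (0.909), miR-150 (0.900) and miR-770-3p (0.882). Only miR-574-5p of these, the GU-rich miRNA printed above, was above background in at least 7 lines, namely in 10. It read 8.01, 8.79, 6.91, 8.08 and 7.98 in spindle lines (A5, D3, CARB, CARC, H11), 8.97, 7.74 and 8.25 in malignant squamous lines (B9, E4, PDVC57), and 6.46, 7.97, 8.09, 7.12 and 8.25 in non-malignant squamous lines (C5N, C50, NK, MSCP1, P6). In C5N, the highest line of the cluster, miR-574-5p was at its lowest, below the array's negative-control median of 6.63, and its r over 13 lines was 0.102.

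The first question of the design is whether spindle lines differ from non-malignant squamous lines. Of the 27 members 0 passed the limma test at an adjusted p of 0.05, which 0 of 576 mouse probes did (0%), and 7 were higher and 20 (74.1%) lower in spindle lines, beside 44.8% of all mouse probes lower. The median difference of the members was -0.11 log2 units, beside 0.03 over all mouse probes, and that of the detected probes was -0.46, with 2 higher and 6 lower. At an unadjusted p under 0.05 there were 0 members, beside 8.51% of mouse probes. The groups did not overlap for 0 members, beside 1.04% of mouse probes. Without C5N the members' median was 0.02, with 16 higher and 11 lower. Without C5N, MSCP1 and A5 it was -0.11, with 2 higher and 25 lower, and all 8 detected probes were lower, with a median of -0.21.

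The members with the smallest p in that comparison were close to background or rested on C5N. miR-467d averaged 6.37 ± 0.06 in spindle lines and 6.60 ± 0.32 in non-malignant squamous lines (SD, n = 5 each), a difference of -0.23 with a 95% interval from -0.48 to 0.02 (limma, adjusted p = 0.568). The shared probe of miR-467a* and miR-467d* averaged 7.30 ± 0.58 in spindle lines and 8.14 ± 1.99 in non-malignant squamous lines (SD, n = 5 each), and its difference of -0.85 became 0.032 without C5N. The shared 3p probe of miR-466a, miR-466b, miR-466c and miR-466e differed by -0.60 with C5N and by 0.022 without it. On the other side miR-467e, miR-297a and miR-297c were higher in spindle lines by 0.38, 0.21 and 0.20, with adjusted p from 0.790 to 0.811 in limma. Those differences were -0.18, -0.11 and -0.024 without C5N, MSCP1 and A5. For miR-466f-3p the difference was -1.16 with an interval from -3.41 to 1.09, which spans both directions.

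Against malignant squamous lines, spindle lines were lower for all 8 detected probes, none of which passed the test. Over the 27 members 21 (77.8%) were lower and 6 higher, beside 51.4% of mouse probes lower, with a median of -0.18 beside -0.01 over all mouse probes. Again 0 members were called beside 0%, 0 were at an unadjusted p under 0.05 beside 2.95%, and 0 had groups that did not overlap beside 3.82%. miR-466f-3p averaged 9.11 ± 1.27 in spindle lines (n = 5) and 10.52 ± 1.32 in malignant squamous lines (n = 3), a difference of -1.41 with an interval from -4.02 to 1.19 (limma, adjusted p = 0.990). miR-466e-5p differed by -0.60 (interval -1.85 to 0.65) and miR-297b-5p by -0.15, while miR-467b, miR-297a and miR-467d were higher by 0.35, 0.24 and 0.07, each with an adjusted p of 0.990 in limma. Without B9 the members' median was 0.04, with 17 higher and 10 lower, and 5 of the 8 detected probes were lower.

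Set against both squamous groups with equal weight, spindle lines were again lower for the 8 detected probes, by a median of -0.41. Of the 27 members 21 (77.8%) were lower and 6 higher, beside 48.6% of mouse probes lower, and the median was -0.12 beside 0.00 over all mouse probes. None passed the test (0 members beside 0%), 0 were at an unadjusted p under 0.05 beside 4.86%, and 0 had groups that did not overlap beside 0.521%. The smallest p values among the lower members were those of miR-466f-3p, at -1.29 with an interval from -3.34 to 0.77, miR-466e-5p, at -0.57, and miR-466g, at -0.32. Among the higher members they were those of miR-297a, at 0.22, miR-297c, at 0.11, and miR-467b, at 0.12, and all 6 had an adjusted p of 0.896 in limma. Not all 8 detected probes were lower when C5N, CARB or B9 was left out: 6 were without C5N (median -0.19), 5 without CARB (-0.20), 6 without B9 (-0.22) and 7 without A5 (-0.38). These 3 comparisons share the spindle lines, so that their signs are not independent of each other.

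The last contrast set the malignant against the non-malignant squamous lines. Of the members 14 were higher and 13 (48.1%) lower, beside 45% of mouse probes lower, and 0 members were called beside 0%. The median was 0.03 for the members and for all mouse probes on the deposited scale, but -0.15 for the members, with 10 higher, after quantile normalization of the arrays. At an unadjusted p under 0.05 there was 1 member, or 3.70% of the 27, beside 4.51% of mouse probes, and 0 had groups that did not overlap beside 4.86%. That member was miR-467d, which averaged 6.30 ± 0.11 in malignant squamous lines (n = 3) and 6.60 ± 0.32 in non-malignant squamous lines (n = 5) and is above background in no line, with a limma adjusted p of 0.844. The other lower members named by their p were miR-467b at -0.46 and miR-467c at -0.11, and the higher ones miR-467e at 0.46, miR-466b-5p at 0.46 and the shared miR-297b-3p probe at 0.43. Without C5N the members' median was 0.21 with 21 higher, without MSCP1 it was -0.16 with 8 higher, and without B9 it was -0.16 with 5 higher.

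**Figure D5:**
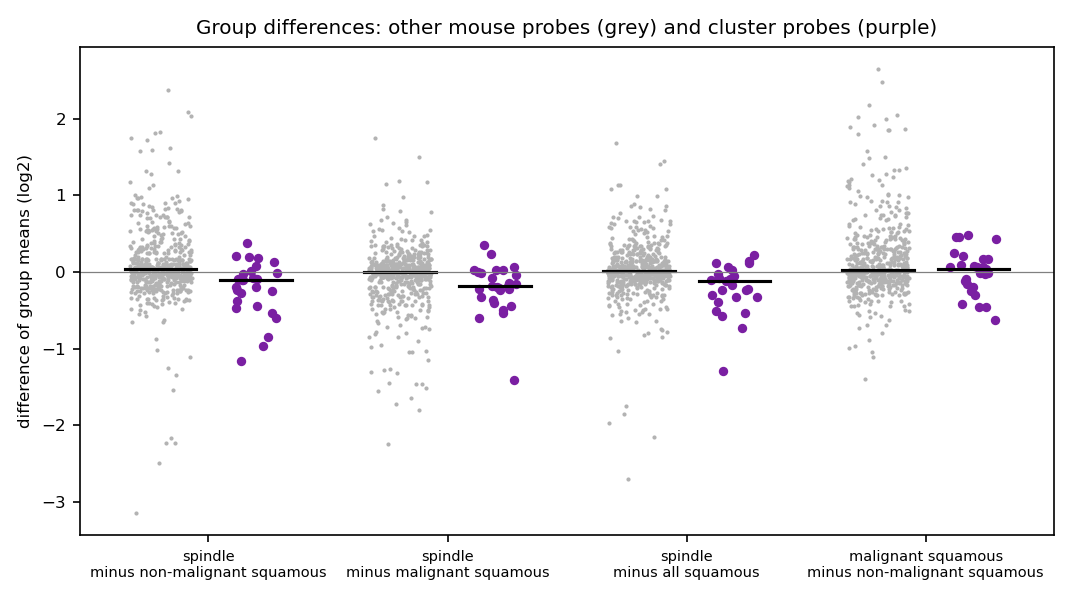
Difference of group means in log2 units for the 549 other mouse probes (grey) and the 27 cluster probes (purple) in the 4 comparisons, 1 point per probe, with the median of each set as a black bar. The cluster's medians are -0.11, -0.18, -0.12 and 0.03 from left to right, inside the spread of the grey points.

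Lines of 1 tumour gave a closer comparison, with no replicate of a line and hence no test. In the tumour of B9, the spindle line D3 was below the squamous line B9 for all 8 detected probes, with a median difference of -0.55 log2 units, and A5 was below B9 for 7 of 8, with a median difference of -1.56. Over all 27 members the median was -0.17 for D3 minus B9, with 7 higher and 20 (74.1%) lower, and -0.18 for A5 minus B9, with 8 higher and 19 (70.4%) lower. Among all mouse probes 54.3% were lower in D3 than in B9 and 51.6% lower in A5 than in B9. For miR-466f-3p the difference was -1.41 in D3 and -4.55 in A5, which was also the lowest of all 576 mouse probes for A5 minus B9. miR-297a ran the other way in A5, 1.01 above B9. In the other tumour, the spindle line H11 was above the squamous line E4 for 4 detected probes and below it for 4, with a median difference of -0.0041, and miR-466f-3p differed by -1.07. Over all 27 members the median there was -0.047, with 10 higher and 17 (63.0%) lower, beside 39.2% of mouse probes lower. D3 and B9 had 185 and 184 mouse probes above background. A5 had 133, and H11 and E4 had 141 and 147. miR-21 read 8.40 and let-7a 7.56 in A5, beside 12.50 and 10.26 in B9 and 12.52 and 10.51 in D3. The part of these differences between arrays in the gaps was not tested.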

How the data were processed

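The 14 arrays of an Exiqon miRNA platform were hybridised with Cy3-labelled RNA extracted with the miRNeasy kit, per the labels' protocols. The authors deposited 1 table of normalized log2 values; how the slides were scanned, background-corrected and normalized is not given in the sources used here, and p-values rest on that unknown scaling. The 2 A5 arrays were averaged. Group differences were fitted with limma 3.58.1 in R 4.3.3 (lmFit on 3 groups of 5, 3 and 5 lines, eBayes with trend, adjustment by Benjamini-Hochberg across the 576 mouse probes, threshold 0.05), after a check on simulated data. P-values measure the spread between lines, of which some share a tumour. The number of arrays limits the precision. Intervals are 95% intervals of the fit. Correlations, counts and figures were made with Python 3.11.15.

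Members named with values were the 8 with the highest median, the 3 higher and 3 lower with the smallest p in each comparison, and the 5 with the largest SD, and the 5 outside probes with the highest r. The members, lists and stand-apart lines were chosen with earlier results of these data known, and the correlations of detected and outside probes without the 3 lines were added after the data were seen. Alternatives were other scalings, probe filters, thresholds, left-out lines, single A5 arrays and tumour of origin as a random block. RefSeq tables (GRCm38.p6) gave hairpin neighbourhoods and the sequences.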

Additional observations from a re-analysis of the deposited data

Results flagged for a closer look

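Within the 5 non-malignant squamous lines, C5N lay far from the other 4 for 6 named members. It read 11.4 for miR-466d-5p (7.73 to 8.69 in the others), 13.8 for miR-466c-5p (7.21 to 8.48), and 11.7 for the shared probe of miR-467a* and miR-467d* (6.68 to 7.54). It read 10.4 for the shared 3p probe of miR-466a, miR-466b, miR-466c and miR-466e (6.99 to 7.56), 8.15 for miR-466g (6.56 to 6.87) and 7.24 for miR-467c (6.53 to 6.69). These are 6 of 36 groups of lines examined for 18 named probes, all 6 of them C5N. The named probes were chosen in part by their SD over the lines, to which C5N adds. For miR-466c-5p the SD was 1.70 with C5N and 0.70 without it. The 6 also come from 1 array and correlated probes, so their number cannot be set against a rate of chance.

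Probes for 2 rat miRNAs of the family, which no comparison above uses, read above the negative controls. rno-miR-466b had a median of 1.14 log2 units above them and was above background in 7 lines, and rno-miR-466c had a median of 1.67 and was above background in 11 lines. Their r with the mean of the detected mouse probes was 0.893 and 0.845 over 13 lines. Another rat probe of the family, rno-miR-297, was above background in 0 lines, and its r over 13 lines was 0.116.

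For 4 named members the spindle and squamous lines of the 2 tumours had differences of opposite sign, and the difference between the tumours was not tested. H11 minus E4 was 0.41 for miR-466b-5p, where A5 minus B9 was -0.91 and D3 minus B9 was -0.64. It was 0.039 for miR-466a-5p (-1.76 and -0.48) and 0.12 for the shared miR-297b-3p probe (-2.44 and -0.40). For miR-467d it was -0.052, where A5 and D3 were 0.26 and 0.18 above B9. For miR-466a-5p and miR-467d the H11 minus E4 values are smaller than the 0.329 and 0.099 by which the A5 duplicates differed for those probes, so they show no direction.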

How the results depend on the processing

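Over all alternatives run, 0 cluster probes were called in any of the 4 comparisons, and the smallest adjusted p of any member was 0.486 (miR-467d). Of 300 settings of the counts and medians, 286 stayed within the spread or 1.5 times the count, and of 523 settings of single named probes 509 kept their sign. The 286 include the number of cluster probes called, which was 0 in every fit. They also include medians that changed sign. The members' median in spindle minus malignant squamous was -0.18 in the main fit and 0.04 without B9. The number of mouse probes called in spindle minus non-malignant squamous was 2 after quantile normalization, 7 without C5N, MSCP1 and A5, and 0 to 1 with single lines left out (1 without MSCP1). In spindle minus malignant squamous it was 1 without the 3 lines and 0 to 1 with single lines left out (1 without A5), and in spindle minus all squamous 2, 8 and 0 to 2 (2 without A5, 1 without MSCP1). Detected cluster probes numbered 17 at a threshold of 0.5 log2 units, 2 at a threshold of 2 and 20 against the second highest negative control, and 8 with any single line left out. The median r of member pairs was 0.594 without the 3 lines, 0.702 for detected probes alone, and 0.322 (without MSCP1) to 0.456 (without A5) with single lines left out.

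Signs that turned were small. Without the 3 lines, spindle minus non-malignant squamous was -0.18 for miR-467e, -0.024 for miR-297c and -0.11 for miR-297a, spindle minus all squamous was -0.051 for miR-297a and -0.032 for miR-297c, and malignant minus non-malignant squamous was -0.017 for the shared miR-297b-3p probe. With single lines left out, spindle minus non-malignant squamous ran from -0.016 to 0.34 for miR-297a, from -0.82 to 0.022 for the shared miR-466 3p probe and from -1.21 to 0.032 for miR-467a*/miR-467d*. Spindle minus all squamous ran from -0.0026 to 0.36 for miR-297a and from -0.014 to 0.24 for miR-297c. Malignant minus non-malignant squamous ran from -0.091 to 0.97 for miR-466b-5p, from -0.011 to 0.71 for the shared miR-297b-3p probe and from -0.18 to 0.014 for miR-467c. The causes were not tested. The replicate numbers do not pair lines across groups. Only the tumours of B9 and of E4 gave both spindle and squamous lines, and no paired test was run on them. With tumour of origin as a random block (consensus correlation 0.214), 0 members were called. With 13 lines, a difference near the standard error of these probes was not detectable.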
